A study of Mus musculus with 11 samples.

Results

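Heat shock proteins and chaperones were examined in bulk RNA-seq of precursor exhausted CD8+ T cells sorted from Lewis lung carcinoma (LLC) tumors, a transplanted mouse lung cancer line. The members were the symbols starting with Hspa, Hspb, Hspd, Hspe, Hsph, Hsp90, Dnaja, Dnajb or Dnajc, the 8 subunits of the CCT chaperonin and the transcription factor Hsf1, without symbols marked as pseudogenes by -ps, and they numbered 79 of the 32469 symbols counted. The mice were wild-type (WT) female C57BL/6 animals, bought at 8 weeks of age, with LLC tumors under the skin of both flanks. The untreated group (n = 5, mice 1 to 5) carried tumors and received no antibody, and the aLAG3 group (n = 6, mice 6 to 11) received anti-LAG-3, an antibody against an inhibitory receptor of T cells, at 200 μg per mouse into the abdomen on days 14 and 16. Each library came from 1 mouse, and the tumors were digested with collagenase at 37 °C before the cells were sorted as CD8+ PD-1+ Ly108+ TIM-3- CD62L-. LLC is 1 transplanted line, and no isotype antibody was listed for the untreated mice. The questions were whether they differed between aLAG3 and untreated mice, and how much they varied between mice, since warm digestion of tissue is known to raise stress genes.

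Chaperones bind unfolded or aggregating proteins. HSP70 proteins act with J-domain partners (DNAJ) that deliver clients and trigger ATP hydrolysis, HSP90 proteins mature kinases and receptors, and the ring-shaped chaperonins, HSP60 with its HSP10 lid in mitochondria and CCT in the cytosol, enclose a protein while it folds. After heat or proteotoxic stress, HSF1 binds arrays of the unit GAA and its complement in the promoters of Hspa1a, Hspa1b, Hsph1, Dnajb1, Hspd1, Hspe1 and other genes, whereas unfolded proteins in the endoplasmic reticulum (ER) act on ER stress elements in front of Hspa5, Hsp90b1 and related genes. Activated T cells make more of many constitutive chaperones as they grow.

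The libraries held 313524 to 1901374 counts, and 51 of the 79 members were among the 6949 genes that passed the filter on low counts. Of the other 28, 5 had no count in any library, 7 had 1 to 5 counts in all and 16 had more but too few to be tested. The title of each library carries a code, RNABC8, RNABC9 or RNABC10, which was read here as its primer barcode, and depth went with it. The 6 libraries with barcode 9 (mice 1, 3, 5, 6, 7 and 9) held 566144 counts or more, and the 4 with barcode 8 (mice 4, 8, 10 and 11) and the 1 with barcode 10 (mouse 2) held 451465 or fewer. The sorted phenotype was seen in the RNA. Cd8a lay between 1035 and 1238 CPM (counts scaled to a common library size), Pdcd1, which encodes PD-1, between 465 and 749 CPM, and Slamf6, which encodes Ly108, between 71.8 and 115 CPM, while Havcr2, which encodes TIM-3, reached at most 18.8 CPM. In these bulk samples, fewer cells of a type and less RNA per cell cannot be told apart.

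The regulatory sequences of the strongly stress-regulated members are shown first, because the level of these genes is what a check of handling stress turns on. Promoters of 250 bases before to 50 after the gene start, from RefSeq on GRCm38.p6, were found for 62 of the 79 members and 38 of the 51 tested ones. Hspa1a and Hspa1b are neighbours on chromosome 17, and the 250 bases before their starts (minus strand, chr17:34972157-34972406 and chr17:34959239-34959488, outside annotated exons) were identical at 247 of 250 positions. The capitals mark a match to a pair of facing HSF1 units, written GAANNTTC or TTCNNGAA and searched on both strands, 104 to 97 bases before the gene start in each.
Hspa1a: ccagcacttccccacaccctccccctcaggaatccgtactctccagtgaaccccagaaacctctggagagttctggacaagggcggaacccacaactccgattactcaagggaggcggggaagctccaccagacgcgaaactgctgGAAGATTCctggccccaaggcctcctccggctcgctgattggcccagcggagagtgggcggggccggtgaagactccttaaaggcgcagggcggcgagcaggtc
Hspa1b: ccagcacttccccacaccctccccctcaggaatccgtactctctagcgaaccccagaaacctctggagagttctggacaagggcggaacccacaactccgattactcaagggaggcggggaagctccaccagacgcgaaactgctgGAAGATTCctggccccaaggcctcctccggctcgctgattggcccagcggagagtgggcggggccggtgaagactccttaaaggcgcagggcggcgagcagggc

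That pair of units is common, with a match in a promoter of 17.0% of the 27025 genes in the RefSeq promoter table and of 17 of the 62 members that have one. Hspa8, Hsp90aa1 and Hsp90ab1 have no entry in that table. A run of 3 units, GAANNTTCNNGAA or TTCNNGAANNTTC, is rarer, with a match for 0.662% of genes, among them Hspd1, Hspe1, Hsph1 and Dnajb6. Each is shown as a stretch of 30 bases with the matches in capitals. The stretch of Hspe1 (plus strand, chr1:55088053-55088082) holds 2 overlapping matches and is also part of the promoter of Hspd1, which is transcribed in the other direction. The stretch of Hsph1 (minus strand, chr5:149636279-149636308) lies just after its gene start, that of Dnajb6 (plus strand, chr5:29735844-29735873) before the start used here, and all 3 stretches lie within exons of the GRCm38 annotation.
Hspe1: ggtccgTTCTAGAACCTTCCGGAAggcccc
Hsph1: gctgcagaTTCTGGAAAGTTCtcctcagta
Dnajb6: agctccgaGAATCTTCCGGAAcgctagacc

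The ER stress element, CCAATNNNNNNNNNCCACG on either strand, matched a promoter of 0.137% of genes, among them Hspa5 (plus strand, chr2:34772020-34772049), Hsp90b1 (minus strand, chr10:86705632-86705661, and again in reverse at chr10:86705527-86705556) and Dnajc3 (plus strand, chr14:118937822-118937851). The 3 members encode an ER HSP70, the ER HSP90 and an ER J-domain protein.
Hspa5: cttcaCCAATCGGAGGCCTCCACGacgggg
Hsp90b1: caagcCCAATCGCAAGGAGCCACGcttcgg
Hsp90b1, reverse: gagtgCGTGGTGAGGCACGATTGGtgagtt
Dnajc3: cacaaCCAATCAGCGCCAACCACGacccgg
A match describes the letters only, and binding was not measured.

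The HSP70 genes that heat induces most were close to absent. Hspa1a, the inducible cytosolic HSP70, had 4, 2, 5, 0 and 0 counts in untreated mice 1 to 5 and 7, 11, 0, 8, 2 and 2 in aLAG3 mice 6 to 11. Hspa1b, its near-identical neighbour, had 1 count in each untreated mouse and 8, 2, 1, 10, 0 and 1 in the aLAG3 mice. Both failed the filter, also when they were summed. Without the filter, the log2 fold change was 1.63 ± 0.74 for Hspa1b (unadjusted p = 0.0265) and 1.00 ± 0.57 for Hspa1a (unadjusted p = 0.0815), with an adjusted p of 0.725 for each in edgeR. The transcripts of Hspa1a share 58.8% of their 50-base stretches with those of Hspa1b, so that the split between them is uncertain. The pair together gave 16 of 3738789 counts in untreated mice and 52 of 5034610 in aLAG3 mice. Of the 52 counts, 46 fell in mice 6, 7 and 9, the 3 aLAG3 libraries with barcode 9. These were also the deepest of the group, with 1106268, 1901374 and 845886 of its 5034610 counts. The summed level was 13.5 CPM in mouse 6 (exact Poisson 95% interval 7.58 to 22.3), 6.79 CPM in mouse 7 (3.62 to 11.6) and 21.3 CPM in mouse 9 (12.6 to 33.6), against 3.91 CPM (1.27 to 9.12) and 5.08 CPM (1.86 to 11.1) in untreated mice 1 and 3. The interval of mouse 9 lay above those of both untreated mice, while the other 6 libraries had 3 counts or fewer and levels at or under their floor of 3 counts. The intervals cover counting error only. Hspa1l, Hspa12a, Hspb2, Dnajc5b and Dnajc22 had 0 of 8773399 counts, which allows at most 0.342 CPM, and Hspb1, the heat-induced small heat shock protein, had 5 counts in all 11 libraries.

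The constitutive HSP70 genes were abundant. Hspa8, the cytosolic HSC70 (chromosome 9, 40800984 to 40810087), was at 1738, 1734, 1689, 1557 and 1745 CPM in untreated mice 1 to 5. In the aLAG3 mice its lowest level was 1294 CPM, its median 1701 CPM and its highest 1828 CPM. The untreated values lay inside the aLAG3 range, and the low aLAG3 values were those of mice 8 and 10. The log2 fold change of aLAG3 against untreated was −0.05 ± 0.08 (SE), with an adjusted p of 0.9996 (edgeR quasi-likelihood F test, Benjamini-Hochberg over all tested genes). Hspa5, the ER chaperone BiP, was at 684, 655, 698, 765 and 671 CPM in untreated mice and between 637 and 782 CPM, with a median of 682 CPM, in aLAG3 mice. Its log2 fold change was 0.01 ± 0.08, and the 95% interval ran from −0.15 to 0.16. Hspa4, a nucleotide exchange factor of the HSP110 branch (log2 fold change −0.06 ± 0.09), and Hspa9, the mitochondrial HSP70 (−0.07 ± 0.10), were similarly close to 0. Hsph1, the heat-induced HSP110, was at 74.2, 72.1, 69.4, 65.8 and 57.1 CPM in untreated mice and ranged from 53.9 CPM in mouse 8 to 99.3 CPM in mouse 6. Its log2 fold change was 0.17 ± 0.15. Among the 8 tested genes of the HSP70 and HSP110 family, 4 had a positive and 4 a negative fold change. The widest interval was that of Hspa13, a microsomal HSP70 at 20.1 CPM on average, which ran from −0.31 to 0.81.

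All 3 HSP90 genes had small positive fold changes that did not pass the test. Hsp90ab1, the constitutive cytosolic HSP90, was at 2233, 2169, 2244, 2205 and 2215 CPM in untreated mice and at 2558, 2279, 2106, 2481, 2018 and 2567 CPM in aLAG3 mice 6 to 11. The untreated values lay close together, and the aLAG3 mice fell on both sides of them, 4 above and 2 below. The log2 fold change was 0.08 ± 0.06, with an unadjusted p of 0.191 in the same edgeR quasi-likelihood test. Hsp90aa1, the inducible cytosolic isoform, was at 415, 414, 525, 487 and 444 CPM in untreated mice, and ran from 354 CPM in mouse 10 to 549 CPM in mouse 9 under aLAG3, with a log2 fold change of 0.08 ± 0.10. Hsp90b1, the ER HSP90 GRP94, had a log2 fold change of 0.04 ± 0.09. On the scale of CPM per kilobase of the longest transcript, Hsp90ab1 (905) and Hspa8 (689) had the highest levels of the tested members and Hspe1 (391) the next, while Hsf1 was at 15.8 and Hsph1 at 18.9. Reads were made from cDNA copied from the poly(A) end, and whether counts scale with transcript length was not stated. Hspa8 shares 39.4% of its 50-base stretches with other annotated genes and Hsp90aa1 47.5%, so part of their counts may have been assigned elsewhere.

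**Figure D1:**
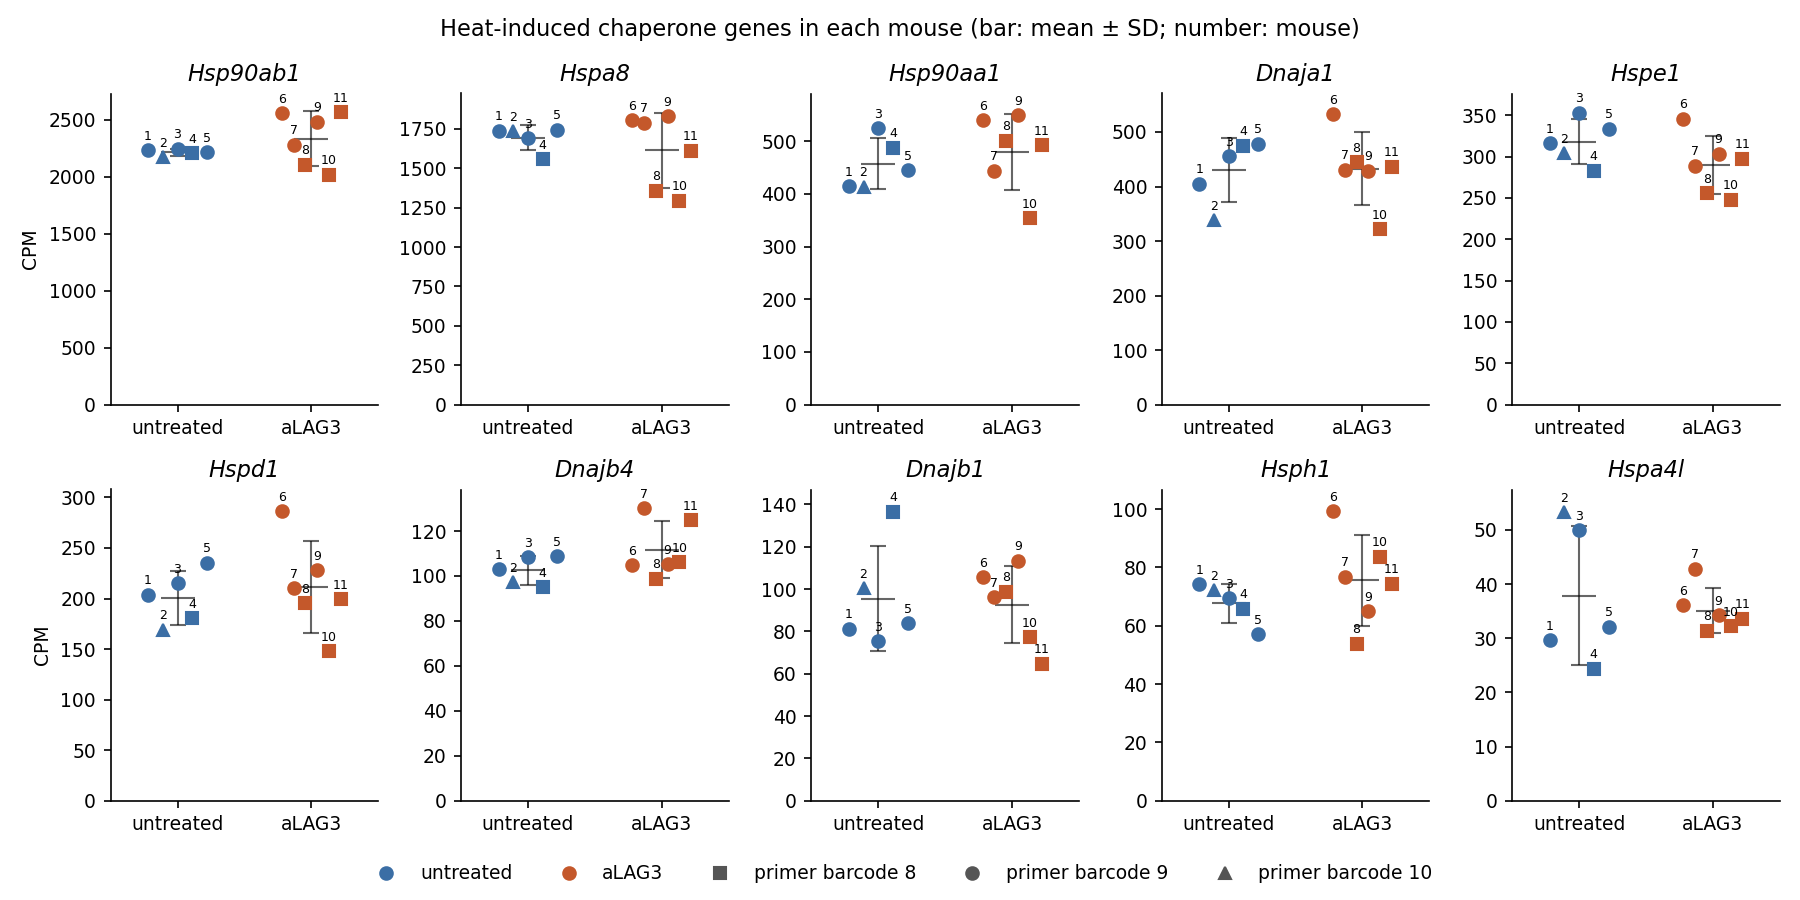
CPM of the 10 tested genes of the heat-induced list in each mouse, with points numbered by mouse, coloured by group and shaped by primer barcode, and bars for the group mean ± SD (n = 5 untreated, n = 6 aLAG3). The groups overlap for every gene, and mouse 10 is the lowest of all 11 mice in 6 of the 10 panels.

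The mitochondrial chaperonin genes Hspd1 (HSP60) and Hspe1 (HSP10) lie head to head on chromosome 1, at 55077835 to 55088243 and 55088132 to 55091307, and their annotated ends overlap. The run of HSF1 units shown above lies beside this overlap, within an exon of Hspd1 and before the annotated start of Hspe1. Hspd1 was at 204, 169, 215, 180 and 236 CPM in untreated mice and had a lowest level of 148 CPM, a median of 205 CPM and a highest level of 286 CPM in aLAG3 mice. Hspe1 was at 316, 304, 353, 283 and 334 CPM in untreated mice, against 248, 293 and 346 CPM. For both genes mouse 10 was lowest among aLAG3 mice and mouse 6 highest. The log2 fold changes were 0.09 ± 0.12 for Hspd1 and −0.13 ± 0.10 for Hspe1. Hspe1 shares 22.8% of its 50-base stretches with other annotated genes and Hspd1 42.1%, and how such reads were assigned is not stated.

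The cytosolic CCT ring folds actin and tubulin. All 8 subunits were tested, with 5 positive and 3 negative fold changes, from −0.07 for Cct7 to 0.18 ± 0.10 for Cct2, and all 8 intervals stayed within 1.5-fold in either direction. Cct2 was at 340, 295, 306, 249 and 302 CPM in untreated mice and at 257, 340 and 403 CPM (lowest, median and highest) in aLAG3 mice, and the groups overlapped over most of their ranges. Tcp1, the alpha subunit, was at 306, 238, 353, 331 and 336 CPM in untreated mice and between 280 and 330 CPM under aLAG3. Cct6a was lowest in mouse 10, at 145 CPM against 215 CPM or more in the other aLAG3 mice.

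Of the 41 DNAJ genes, 26 were tested. The fold changes were positive for 18 and negative for 8, and none had an unadjusted p under 0.05. Dnaja1, a farnesylated partner of HSC70 and the DNAJ gene with the highest CPM, was at 405, 339, 456, 475 and 478 CPM in untreated mice and at 322, 434 and 533 CPM (lowest, median and highest) in aLAG3 mice, with a log2 fold change of 0.02 ± 0.10. Dnajb1, the classical heat-induced HSP40, was at 81.3, 100.3, 75.4, 136 and 83.9 CPM in untreated mice and ran from 64.8 CPM in mouse 11 to 113 CPM in mouse 9 under aLAG3. Its highest value was in untreated mouse 4. Dnajc2, a ribosome-associated J-domain protein, had a log2 fold change of 0.24 ± 0.13 and an unadjusted edgeR p of 0.0697. Dnajc30 (0.49 ± 0.25) and Dnajc13 (0.40 ± 0.27), at 19.4 and 24.8 CPM, had the largest positive estimates, and Dnaja3, a mitochondrial J-domain protein at 17.4 CPM, the most negative (−0.33 ± 0.31). These 3 genes also had among the widest intervals. Dnajc3, Dnajb11 and Dnajb9 act in the ER, and their log2 fold changes were 0.01 ± 0.12, −0.01 ± 0.13 and 0.33 ± 0.19.

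Small heat shock proteins were near the limit of detection. Of the 9 Hspb symbols only Hspb11, an intraflagellar transport protein, and Hspbp1, a nucleotide exchange factor of HSP70, were tested. Neither is a small heat shock protein in the strict sense, and their log2 fold changes were 0.18 ± 0.29 and −0.29 ± 0.20. Hsf1, the regulator of the heat shock response, was at 39.8, 34.5, 33.0, 24.4 and 41.05 CPM in untreated mice, and ran from 21.6 to 44.9 CPM with a median of 32.8 CPM under aLAG3, with a log2 fold change of −0.04 ± 0.21.

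Over all 51 tested members, none had an adjusted p under 0.05, against 0% of the 6949 tested genes (0 genes). At an unadjusted p under 0.05 stood 1 of 51 members (1.96%) against 3.71% of all tested genes (258 of 6949) by edgeR's quasi-likelihood test. By edgeR's likelihood ratio test these counts were 2 members and 307 genes, and by DESeq2's Wald test 1 member and 163 genes, again with none past adjustment. The groups did not overlap for 1 member, a share of 1.96% against 0.489% of all tested genes. Fold changes were positive for 33 members and negative for 18, or 64.7% against 51.1% of all tested genes above 0. The median log2 fold change was 0.04 over the members and 0.00 over all tested genes. The 95% intervals stayed within 1.5-fold in either direction for 39 of 51 members, a share of 76.5% against 64.7% of all tested genes, and within 2-fold for 50 of 51, or 98% against 97.2%. The exception was Dnajc30, whose interval reached 1.00 on the log2 scale. Many changes of 1.5-fold were missed in simulated counts with the same depths and spread. There, 40.1% of 192 genes changed by 1.5-fold and 89.4% of 180 genes changed by 2-fold were called. The changed genes were drawn from all tested genes, and the share called depends on how many change. These rates are therefore not those of the members.

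**Figure D2:**
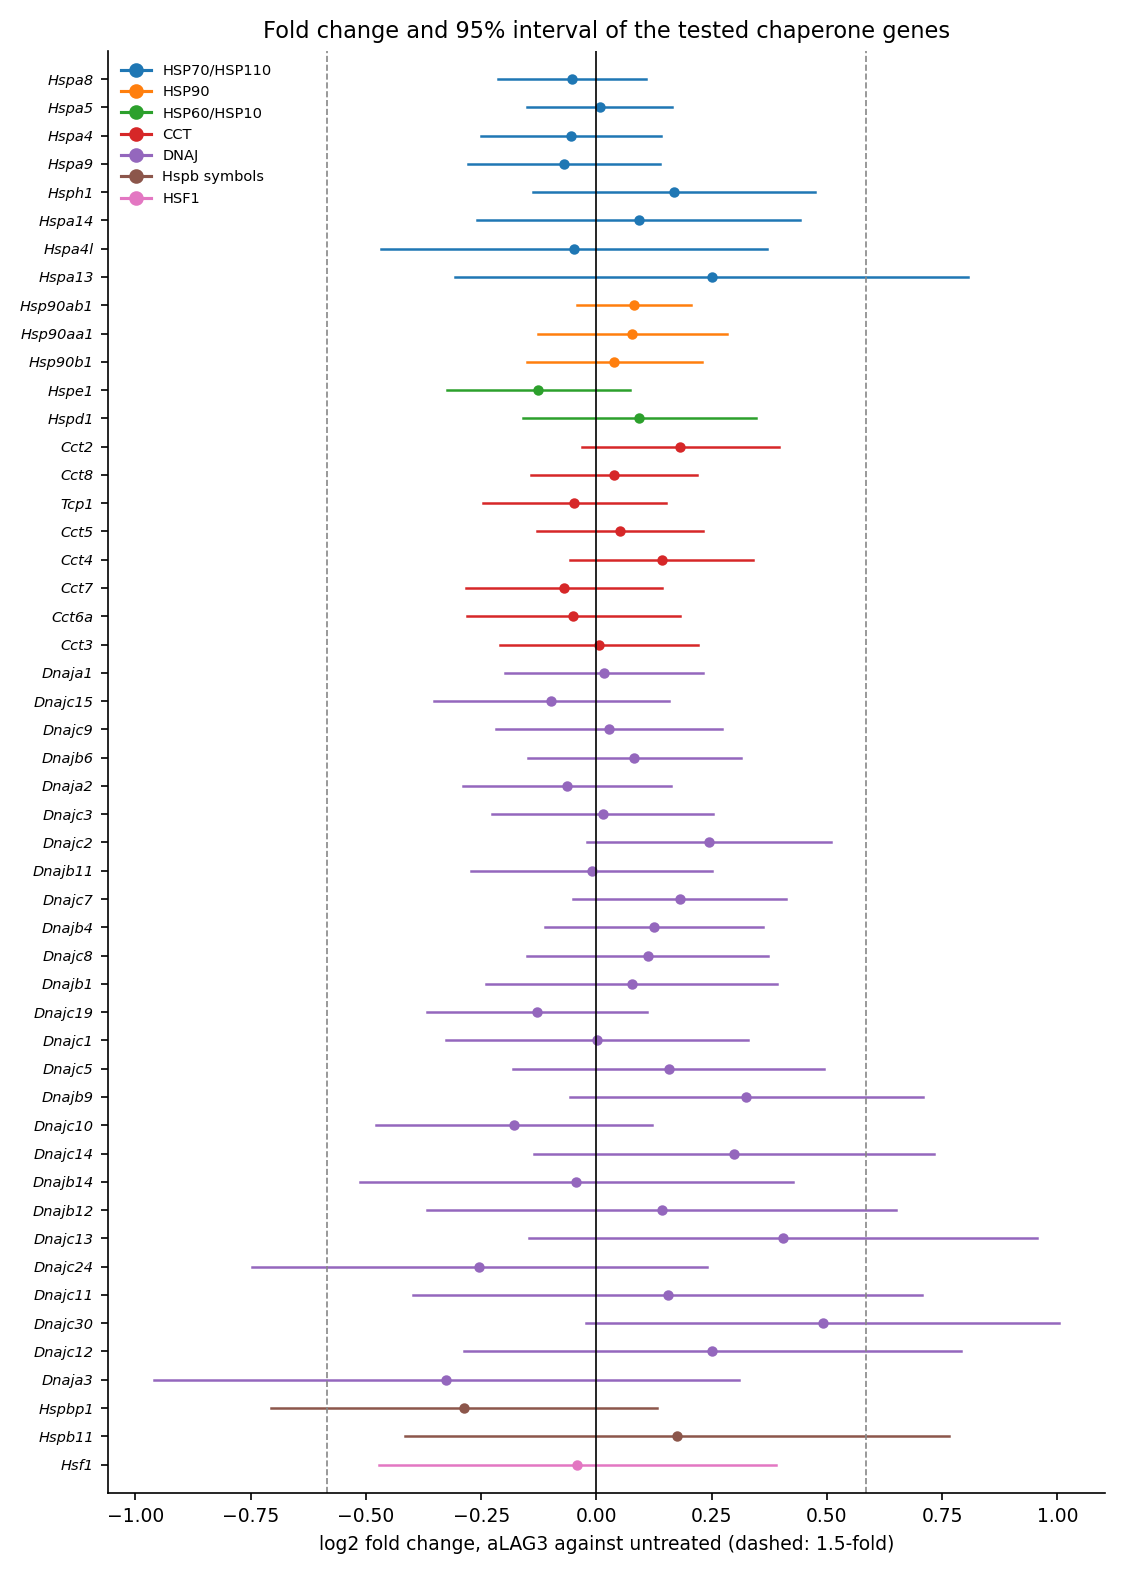
Log2 fold change of aLAG3 against untreated (points) with its 95% interval (lines) for 50 of the 51 tested members, ordered by family and level, with dashed lines at 1.5-fold in either direction. All 50 intervals include 0, and the wide intervals belong to genes of low level.

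Genes of the chaperone network outside the members were compared as lists. Of 27 tested co-chaperones, such as the BAG, STIP1 and AHSA1 families, 1 had an unadjusted p under 0.05, namely Grpel1, a nucleotide exchange factor of mitochondrial HSP70 with a log2 fold change of 0.29 ± 0.12. None of the 6 prefoldin subunits, which hand clients to CCT, had one, with a median log2 fold change of 0.08. Among 19 tested genes of the unfolded protein response, 1 did, Atf4, its transcription factor, with 0.28 ± 0.12, and the list's median was −0.01. No gene of these lists passed adjustment over all genes. By the same edgeR quasi-likelihood test, 3.71% of all tested genes had an unadjusted p under 0.05.

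The spread between mice was measured as the edgeR dispersion of each gene within groups, expressed as a coefficient of variation and set against the trend for genes of the same level. It lay above the trend for 17 of 51 members, 33.3% against 36.2% of all tested genes, and above 1.5 times the trended dispersion for 5 of 51, 9.80% against 17.4%. Over the 51 members, neither share exceeded that of all genes. Of the 10 tested members of the heat-induced list, 7 lay above the trend and 1 above 1.5 times it. Their median ratio of dispersion to trend was 1.16, against 0.85 for the members and 0.80 for all tested genes, and this difference was not tested. The coefficient of variation was 6.66% for Hsp90ab1 and 9.34% for Hspa8, 7.61% to 10.6% for the CCT subunits, and 3.54% to 21.7% for the DNAJ genes. Among the members past that line were Hspa8, with a dispersion 1.71 times its trend, and Dnajc15, a mitochondrial J-domain protein at 229 CPM on average, with 1.52 times. With barcode in the fit the ratio of Dnajc15 was 1.74. Immediate early and other genes known to respond to tissue dissociation, none of them a member, were compared alongside. Of 31 tested genes of that list 23 lay above the trend, with ratios of 3.08 for Fos, 2.70 for Jun, 2.77 for Dusp1 and 3.08 for Nfkbia.

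**Figure D3:**
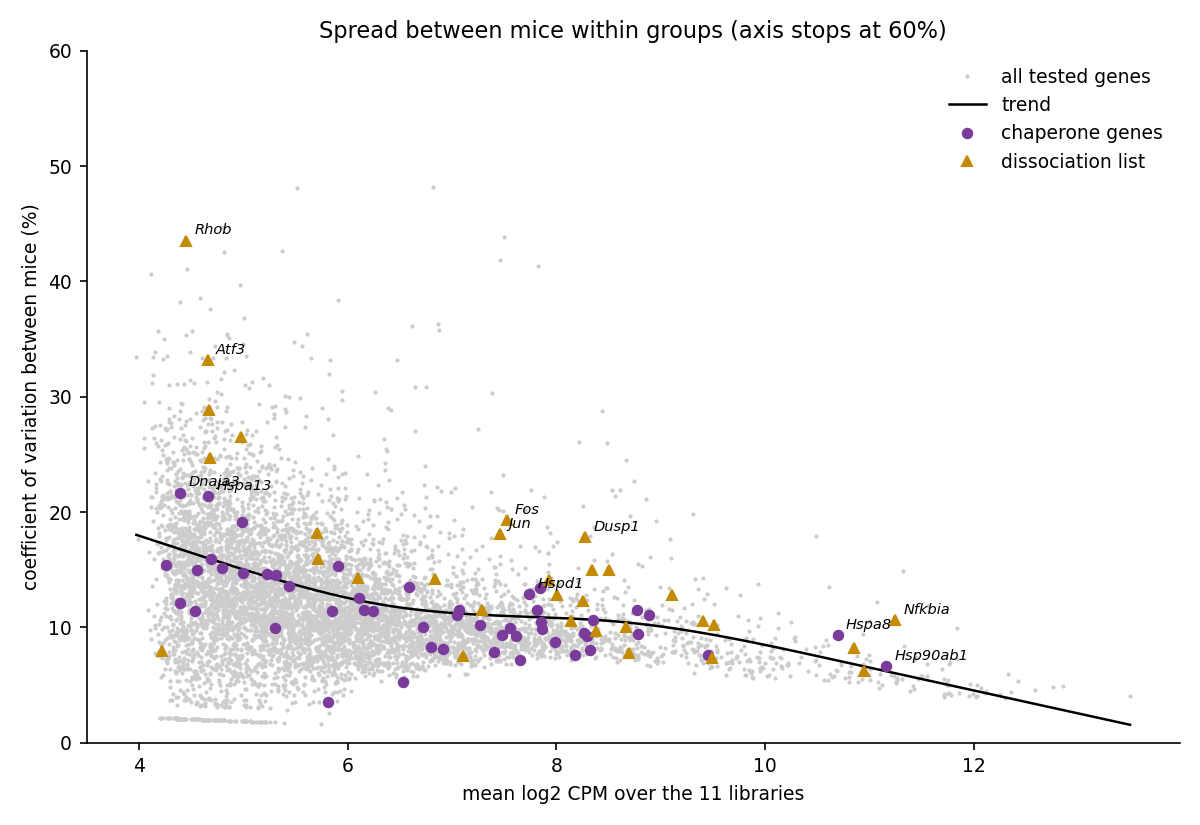
Coefficient of variation between mice within groups (percent) against mean log2 CPM for 6949 tested genes (grey), 50 of the 51 tested members (purple circles), 31 genes of the dissociation list (yellow triangles) and the trend (line). The chaperone genes scatter around the trend, with Hspa8 above it, while Fos, Jun, Dusp1, Nfkbia and Atf3 lie far above it.

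Some mice nevertheless stood apart over many members. The summed CPM of the heat-induced list, 13 genes that include Hspa8, Hsp90ab1, Hsp90aa1, Hspd1, Hspe1 and Dnaja1, was 5605, 5464, 5790, 5512 and 5738 in untreated mice and 6429, 5796, 5147, 6158, 4688 and 5909 in aLAG3 mice 6 to 11. The means were 5622 ± 140.4 (SD, n = 5) and 5688 ± 651 (SD, n = 6). The untreated mice lay close together, and the aLAG3 mice spread to both sides of them, with mice 6 and 9 highest and mice 10 and 8 lowest. Without mouse 10 the aLAG3 mean was 5888 ± 480.3. Hspa8 and Hsp90ab1 make up most of the sum. Without them it ran from 1561 to 1857 CPM in untreated and from 1377 in mouse 10 to 2064 in mouse 6 in aLAG3 mice, so the same 2 mice held the ends. The HSP70 list ran from 2909 to 3006 CPM in untreated and from 2468 to 3168 CPM in aLAG3 mice, and the HSP90 list from 3011 to 3190 and from 2732 to 3577 CPM. The other lists differed in this. The spread was also wider in aLAG3 mice for HSP60 and HSP10, with a coefficient of variation of the sum of 9.72% in untreated and 15.9% in aLAG3 mice, for the mitochondrial chaperones, with an SD of 47.9 and 114 CPM, and, outside the members, for prefoldin (32.0 and 52.8 CPM) and the dissociation list (392 and 1254 CPM). It was wider in untreated mice for the ER chaperones, with coefficients of variation of 7.21% and 4.38%, for the co-chaperones (SD 78.0 and 66.3 CPM) and for the unfolded protein response (117 and 98.9 CPM). For CCT the coefficients were 4.35% and 5.18%, or 2.02% in aLAG3 mice without mouse 10. By gene, the SD of log2(CPM + 1) was larger in aLAG3 than in untreated mice for 8 of the 10 tested heat-induced members and for 31 of 51 members, against 53.7% of all tested genes. The difference in spread was not tested, and the aLAG3 group holds 3 of the 4 libraries with barcode 8. Within barcode 9, with 3 mice per group, the SD of the heat-induced sum was 95.4 CPM in untreated and 318 CPM in aLAG3 mice, that of the HSP90 list 87.3 and 210 CPM, and that of the HSP70 list 30.8 and 57.0 CPM.

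Mouse 10 was the lowest of all mice for 14 of the 51 members (27.5%) and for 6 of the 10 tested heat-induced members, against 15.7% of all tested genes. It was below the mean over mice for 9 of those 10, against 47.9% of all tested genes. Its library was the shallowest, at 313524 counts. Mouse 6 was below the mean for only 8 of the 51 members, against 46.0% of all tested genes. The members took 1.02% of the counts in mouse 10 and 1.27% in mouse 6. The summed marker genes of myeloid cells were highest in mouse 10, at 164 CPM against 45.7 to 108 CPM in the other mice, and all 9 had counts in the series. The marker sum of B cells was also highest in mouse 10, at 22.5 CPM against 3.13 to 9.93 CPM. That of CD4 T cells was 19.3 CPM there against 0 to 18 CPM, hardly above the 18 CPM of mouse 8. Both sums rest on few counts, since 3 counts equal 9.65 CPM in mouse 10. Its marker sum of CD8 T cells was 5303 CPM, within the 4996 to 5578 CPM of the other mice. Its marker sum of natural killer cells was 3.22 CPM against 0 to 4.69 CPM. By group the myeloid sum averaged 63.0 CPM in untreated and 87.6 CPM in aLAG3 mice and the B cell sum 4.44 and 9.81 CPM. The aLAG3 means include mouse 10, which held the highest value of both sums. The paper's gating excluded cells stained for myeloid, B, natural killer and erythroid markers, and its antibody panel included CD4. The purity of cells sorted into lysis buffer was not checked there. The part of the myeloid, B cell and CD4 T cell markers in the low chaperone level of mouse 10, or in the dissociation sums given next, was not tested.

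The ends of the heat-induced and dissociation sums fell in the same mice, in opposite order. The summed dissociation list was highest in mouse 10, at 15603 CPM, the mouse with the lowest heat-induced sum, and lowest in mouse 6, at 11892 CPM, the mouse with the highest. Mouse 9 was high for both, with a dissociation sum of 14370 CPM. In that mouse Fos, a component of AP-1, reached 325 CPM against 125 to 214 CPM in the others, Jun 282 CPM against 125 to 207 CPM, and the pair of Hspa1a and Hspa1b its highest level. Mouse 10 in turn had the highest Nfkbia, the NF-κB inhibitor, at 3443 CPM against 2026 to 2649 CPM. Of the 31 dissociation genes, mouse 10 was highest for 11 (35.5%, against 16.2% of all tested genes) and mouse 9 for 10 (32.3%, against 7.18%). Between groups, 24 of the 31 had a positive fold change and 6 an unadjusted p under 0.05, all positive (Egr1, Klf4, Klf6, Nfkbia, Ubb and Myc), with none past adjustment in the edgeR test. Over all tested genes 51.1% had a positive fold change and 1.71% an unadjusted p under 0.05 with a positive one, against 77.4% and 19.4% of this list. The list had a median log2 fold change of 0.11. The mitochondrially encoded share of counts was 2.10% to 2.14% in untreated mice, 2.10% in aLAG3 mouse 7 and 2.21% to 2.44% in the other 5 aLAG3 mice, and its part in these values was not tested.

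**Figure D4:**
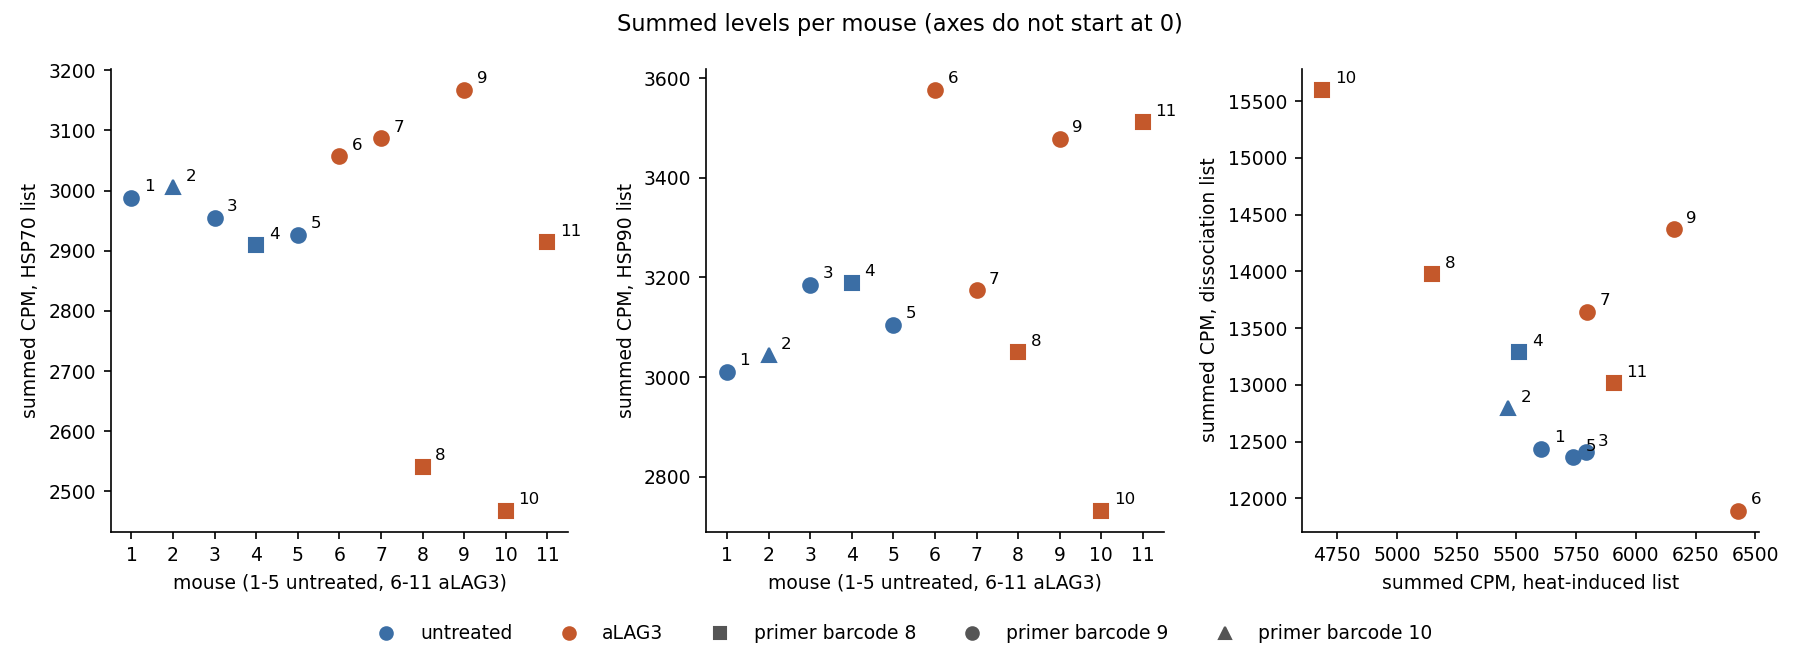
Summed CPM per mouse of the HSP70 list (left) and the HSP90 list (middle), and of the dissociation list against the heat-induced list (right), coloured by group and shaped by primer barcode. Untreated mice lie closer together than aLAG3 mice in each panel, mouse 10 has the lowest HSP70, HSP90 and heat-induced sums with the highest dissociation sum, and mouse 6 has the highest heat-induced with the lowest dissociation sum.

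The primer barcode was tested as well. In a fit with group and barcode, 7 of 51 members had an unadjusted p under 0.05 for barcode 9 against barcode 8, a share of 13.7% against 8.03% of all tested genes, 6 of them higher (4.04% of all tested genes) and 1, Dnajb6, lower (3.99%) with barcode 9. None passed adjustment, against 0.36% of all tested genes (25 of 6949). These counts depended on single libraries. The 7 members became 3 without mouse 4 or 8 and 4 without mouse 1, 3 or 6, and the 25 genes became 9 without mouse 4, 8 without mouse 8 and 12 without mouse 10. Hspa8 was nearest, with a log2 difference of 0.28, an unadjusted p of 0.000427 and an adjusted p of 0.0825 in edgeR. Its levels were 1689 to 1828 CPM in the 6 barcode 9 libraries and 1294 to 1612 CPM in the 4 of barcode 8, which did not overlap. Hspd1 was 0.36 ± 0.12 higher and Hspe1 0.23 ± 0.10 higher with barcode 9 on the log2 scale, and Hsf1, Hspa13 and Dnajc24 made up the rest. With barcode in the fit the dispersion of Hspa8 fell from 1.71 to 0.945 times its trend, and its log2 fold change for aLAG3 became 0.01. Depth differed with barcode in the same way, and depth and barcode cannot be told apart.

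Within the 6 libraries of barcode 9, 3 per group, 9 of the 60 members tested there did not overlap between groups, a share of 15% against 10% of the 9071 genes tested there, and all 9 were higher in aLAG3 mice, against 5.08% of genes. Among them were Hspa8, Hsp90ab1, Hsp90b1, Hspa14, Cct4, Dnajb1, Dnajc5 and Dnajc11. Hspa8 was at 1738, 1689 and 1745 CPM in untreated mice 1, 3 and 5 and at 1806, 1790 and 1828 CPM in aLAG3 mice 6, 7 and 9, a log2 difference of 0.07 ± 0.06. Hsp90ab1 differed by 0.12 ± 0.06. Unadjusted p-values under 0.05 were found for 5 of 60 members, 8.33% against 4.66% of genes, and none passed adjustment by edgeR's quasi-likelihood test (adjusted p 0.988 for each). The barcode 8 libraries hold 1 untreated mouse and were not tested alone. There, Hspa8 was at 1557 CPM in untreated mouse 4 and at 1358, 1294 and 1612 CPM in aLAG3 mice 8, 10 and 11, which lay on both sides of it.

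**Figure D5:**
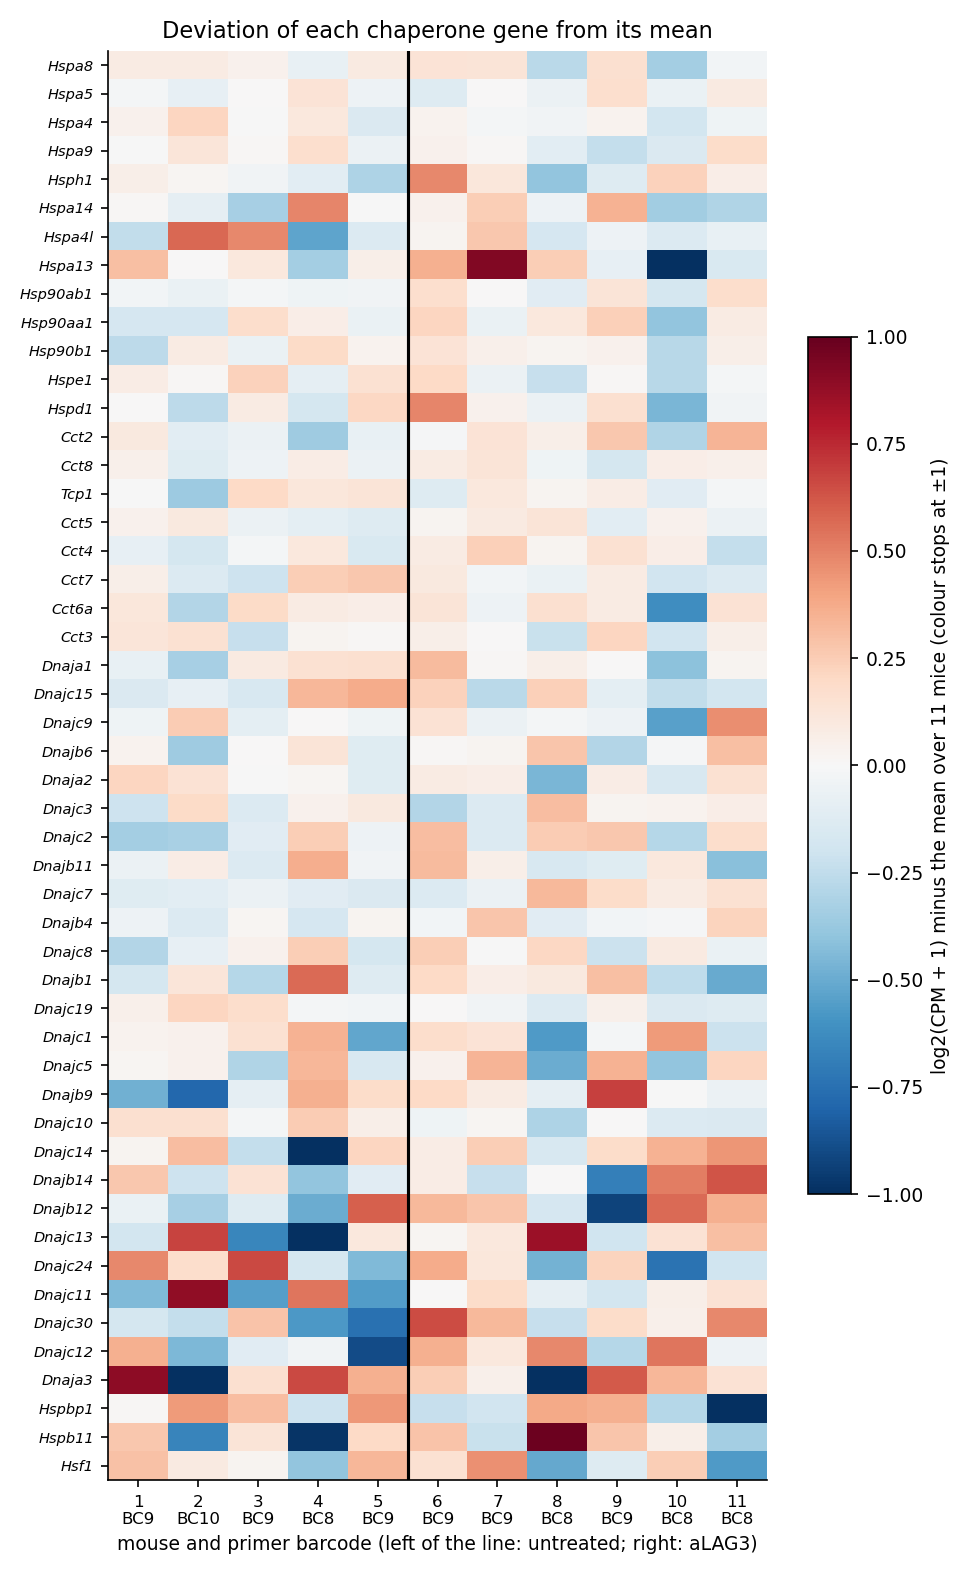
Deviation of log2(CPM + 1) from the mean over 11 mice for 50 of the 51 tested members (rows, by family and level) in each mouse (columns, with primer barcode), red for higher and blue for lower. Mouse 10 is blue and mouse 6 red over many rows, and the largest deviations include those of low-level genes such as Hspa13 and Dnaja3.

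The promoter motifs shown above can be set beside these values. Of the 4 members with a run of 3 HSF1 units, all tested, Hspd1, Hsph1 and Dnajb6 had log2 fold changes of 0.09, 0.17 and 0.08 and Hspe1 −0.13. The 3 with an ER stress element, Hspa5, Hsp90b1 and Dnajc3, were at 0.01, 0.04 and 0.01, with mean levels of 696, 438 and 155 CPM. No difference between groups was detected for either set of genes.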

How the data were processed

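Polyadenylated RNA of the sorted cells was made into libraries by oligo-dT capture and template switching. After adapter trimming, the authors aligned reads to GRCm38 reference RNA, and the deposited values are raw counts per gene symbol. The submitters' processing notes name cutadapt 4.1 and Bowtie2 2.4.5, and the methods text names other versions of both. Handling of multiply mapping reads and of strand is not given in the sources used here. For excision days, the methods text has 14 and 18 and the design text 14 and 21.

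Groups came from the treatment label, and the 11 columns were matched by title. Genes were kept by filterByExpr (10 counts at the median depth, 17.7 CPM, in 5 libraries or more, with a total of 15). TMM scaling came from edgeR 4.0.16. The quasi-likelihood test with Benjamini-Hochberg adjustment at 0.05 was used on the counts, instead of the authors' likelihood ratio test, which was an alternative with DESeq2 1.42.0. Standard errors are the absolute log2 fold change over the root of F. CPM use TMM library sizes, log values CPM + 1. P-values measure the spread between mice, 1 library each. Only the filter and the quasi-likelihood comparison of the groups were run on simulated counts. R 4.3.3, Python 3.11.15, scipy 1.17.1 and matplotlib 3.10.9 were used.

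The members, the gene lists and the rule for named genes were chosen with earlier results of these data known. Named were the tested members of the HSP70, HSP90, HSP60/HSP10 and CCT lists and Hsf1, the 8 tested DNAJ genes of highest level and up to 6 other tested members by p or non-overlap. Dnajb1, Dnajb9, Dnajc5, Dnajc11, Dnajc13, Dnajc24, Dnajc30, Dnaja3, Hspb11 and Hspbp1 fell outside this rule and were named after their values were seen. Coordinates are from GENCODE M21 (GRCm38), which held 78 of 79 members by symbol, and promoters from RefSeq. Alternatives were RLE scaling, other filters, other tests, barcode as covariate or barcode 9 alone, each library left out, and Hspa1a with Hspa1b summed. The counts cover all members, but 1 tested member is not reported here by name or value.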

Additional observations from a re-analysis of the deposited data

Results flagged for a closer look

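In 78 sets of values (31 named members, 4 library measures and 4 summed lists in each group), 7 held a mouse farther from the rest than Dixon's 95% limit, where chance gives about 1 in 20, or 3.9. Of the 7, 4 were the lowest value of mouse 10 among the 6 aLAG3 mice. Hspa4 was at 174 CPM there against 192 to 202 CPM, Hsp90b1 at 360 CPM against 444 to 479 CPM, Cct6a at 145 CPM against 215 to 249 CPM, and the summed CCT list at 1940 CPM against 2148 to 2254 CPM. The other 3 were in untreated mice. In mouse 2, Cct6a was at 182 CPM against 234 to 255 CPM, and Dnajc9, a histone co-chaperone, at 263 CPM against 206 to 222 CPM. In mouse 4, the summed ER chaperones were at 1849 CPM against 1532 to 1624 CPM. Mice 2, 4 and 10 were sequenced to 317449, 407500 and 313524 counts, the 3 shallowest libraries, and the part of depth in these values was not tested.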

How the results depend on the processing

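No member had an adjusted p under 0.05 under any alternative, and the members' median log2 fold change stayed between 0.01 and 0.08. Without a filter on low counts, 7 genes passed adjustment, none a member, and 3 of 74 members had an unadjusted p under 0.05 (4.05%, against 4.52% of all 24024 genes) while 0 members had groups that did not overlap. The likelihood ratio test gave 2 members under 0.05, and the barcode 9 libraries alone gave 5 of 60 (8.33%, against 4.66% of genes), with 9 that did not overlap (15%, against 10.0%). With each library left out, 1 to 3 members were under 0.05 (3 without untreated mouse 4 or aLAG3 mouse 10, 2 without mouse 2, 3, 7 or 8), beside 3.43% to 5.38% of all genes tested, and 1 to 2 did not overlap (2 without mouse 3), beside 0.771% to 1.2% of all genes. With barcode means removed, 18 members lay above the dispersion trend. Summing Hspa1a and Hspa1b left a gene that did not pass the filter.

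Of 587 log2 fold changes of named members under alternatives, 52 had the other sign and 0 passed the threshold. With barcode as covariate these included 0.085 for Hspa4l, −0.016 for Hspa5, 0.012 for Hspa8, 0.032 for Hsf1, −0.022 for Dnaja1, −0.016 for Dnajb6 and 0.0040 for Dnajb11. In barcode 9 libraries they included 0.033 for Hspa4, 0.016 for Hspa4l, 0.065 for Hspa8, 0.0096 for Cct7, 0.013 for Hsf1, −0.052 for Dnajb6, 0.018 for Dnaja2, −0.036 for Dnajc3 and 0.18 for Dnajb11. With RLE scaling Cct3 was at −0.00015. With each library left out, the values crossing 0 ran from −0.17 to 0.14 for Hspa4l, −0.035 to 0.041 for Hspa5, −0.021 to 0.20 for Hspa14, −0.034 to 0.088 for Hsp90b1, −0.026 to 0.15 for Hspd1, −0.12 to 0.0033 for Tcp1, −0.068 to 0.040 for Cct3, −0.11 to 0.015 for Cct6a, −0.23 to 0.027 for Hsf1, −0.060 to 0.073 for Dnaja1, −0.062 to 0.089 for Dnajc9, −0.051 to 0.072 for Dnajc3 and −0.10 to 0.065 for Dnajb11. The cause was not tested, and neither was the part of the lower depth of the barcode 8 and 10 libraries. No paired analysis was possible because the sample numbers are unique to each mouse and the groups share only 1 index library. That library, as read from the titles, held untreated mice 2 and 3 and aLAG3 mouse 10.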
